A study of Mus musculus with 34 samples.

Results

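The RNA of 10 genes by which hematopoietic stem cells (HSCs) are recognized was examined in sorted mouse HSCs. The genes are Kit, Slamf1, Cd48, Procr, Cd34, Flt3, Tek, Cd27, Thy1 and Fgd5. They were chosen by name, all 10 were present among the 13108 gene rows of the count table, and 9 of them encode surface proteins, while Fgd5 encodes an intracellular exchange factor whose locus is used to mark HSCs with a reporter. Each library was made by SMART-Seq2, which amplifies full-length cDNA from few cells, from 100 HSCs sorted as Lin-c-Kit+Sca-1+ (LSK) CD48-CD150+. All mice were C57BL/6 and carried Ythdf2 fl/fl, an allele with loxP sites around exon 2 that also fuses GFP to YTHDF2, so the controls carried the fusion too. In conditional knockout (CKO) mice Vav-iCre, which is active in hematopoietic cells, deleted Ythdf2, and control (CTL) mice, called wild type in the labels, had no Cre. There were 4 young CTL, 4 young CKO, 4 aged CTL and 5 aged CKO mice. The aged mice were 1 yr old, and the sample labels call the other mice young without an age. Each mouse gave 2 libraries, A and B, whose counts were added, so the mouse was the replicate. The question addressed was whether the sorted cells carried the marker RNA of HSCs to the same degree in each genotype and at each age.

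HSCs are a rare population of the bone marrow that renews itself and gives rise to all blood lineages. No single marker defines them, and a set of receptors and adhesion proteins is read together. KIT, the receptor for stem cell factor, and SCA-1 are present on HSCs and early progenitors alike. CD150, the product of Slamf1, marks the stem cell end of the LSK population, while CD48, FLT3 and CD34 appear as cells become multipotent progenitors. EPCR (Procr), TIE2 (Tek), the receptor for angiopoietins, and Fgd5 are enriched in long-term HSCs. THY1 is held at a low level on mouse HSCs, and CD27, a receptor of the TNF receptor family, is found on most LSK cells.

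Total counts per library ranged from 1859784 to 7784627 over the 33 libraries used, and from 2218618 to 10125624 per mouse. A library of aged CTL mouse 99, library B, held 187034 counts and was left out here. Levels are given as CPM, which are counts relative to the library size after TMM scaling. At 3 counts a library could show a level between 0.385 and 1.61 CPM, and this floor covers counting error only. Ythdf2, the targeted gene, was between 93.0 and 122 CPM in the 4 young CTL mice and between 50.0 and 60.4 CPM in the 4 young CKO mice. In aged mice it went against the label in 1 CKO and 1 CTL mouse, which had the level of the other genotype. Those were the mouse labelled aged CKO 121 at 188 CPM, against 72.4 to 87.5 CPM in the 4 other CKO mice, and the mouse labelled aged CTL 124 at 70.6 CPM, against 143 to 179 CPM in the 3 other CTL mice. The labels were kept, and values without both mice are given where they bear on a result. Young and aged libraries carry different project codes in their descriptions, so age and sequencing project cannot be told apart.

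Library A of aged CTL mouse 114 stood apart in the marker genes themselves. Slamf1 had 0 of 2612089 counts there, which allows a level of up to 1.15 CPM, whereas the other 32 libraries were between 35.7 and 181 CPM. Flt3 was at 183 CPM, and the highest of the other libraries had 70.4 CPM. Cd34 was at 852 CPM (other libraries up to 576 CPM), Cd27 at 394 CPM (up to 279 CPM) and Tek at 22.0 CPM (no less than 24.3 CPM). Thus 5 of the 10 genes lay beyond all other libraries in this library, against 7.98% of 12352 genes. Some progenitor genes were also high in it, and others were not. Mpo, the myeloperoxidase of myeloid progenitors, was at 168 CPM (up to 22.8 CPM elsewhere), and Dntt, the terminal transferase of lymphoid progenitors, was at 53.4 CPM (up to 3.26 CPM elsewhere). The myeloid progenitor genes Prtn3 (550 CPM, up to 667 CPM elsewhere) and Ms4a3 (3.48 CPM, up to 32.4 CPM elsewhere) lay within the other libraries. Hlf, a gene of long-term HSCs, was at 389 CPM, above all other libraries (up to 355 CPM). Kit (428 CPM) and Ly6a (267 CPM) lay within their range. Pf4, platelet factor 4, was at 36.0 CPM, while no other library had less than 154 CPM. Library B of the same mouse held Slamf1 at 57.1 CPM, Flt3 at 29.8 CPM and Cd34 at 172 CPM, all within the range of the other aged CTL libraries. Its Fgd5, at 50.7 CPM, was the highest of the libraries used. Its Cd27 (278 CPM) and Procr (134 CPM) were above the aged CTL libraries of the other mice (up to 213 and 109 CPM). The share of genes beyond all other libraries was higher in both libraries of the mouse labelled aged CTL 124, at 25.0% and 17.9%, with 2 of the 10 genes beyond in each, and was 18.1% in library B of young CKO mouse 3.

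**Figure D1:**
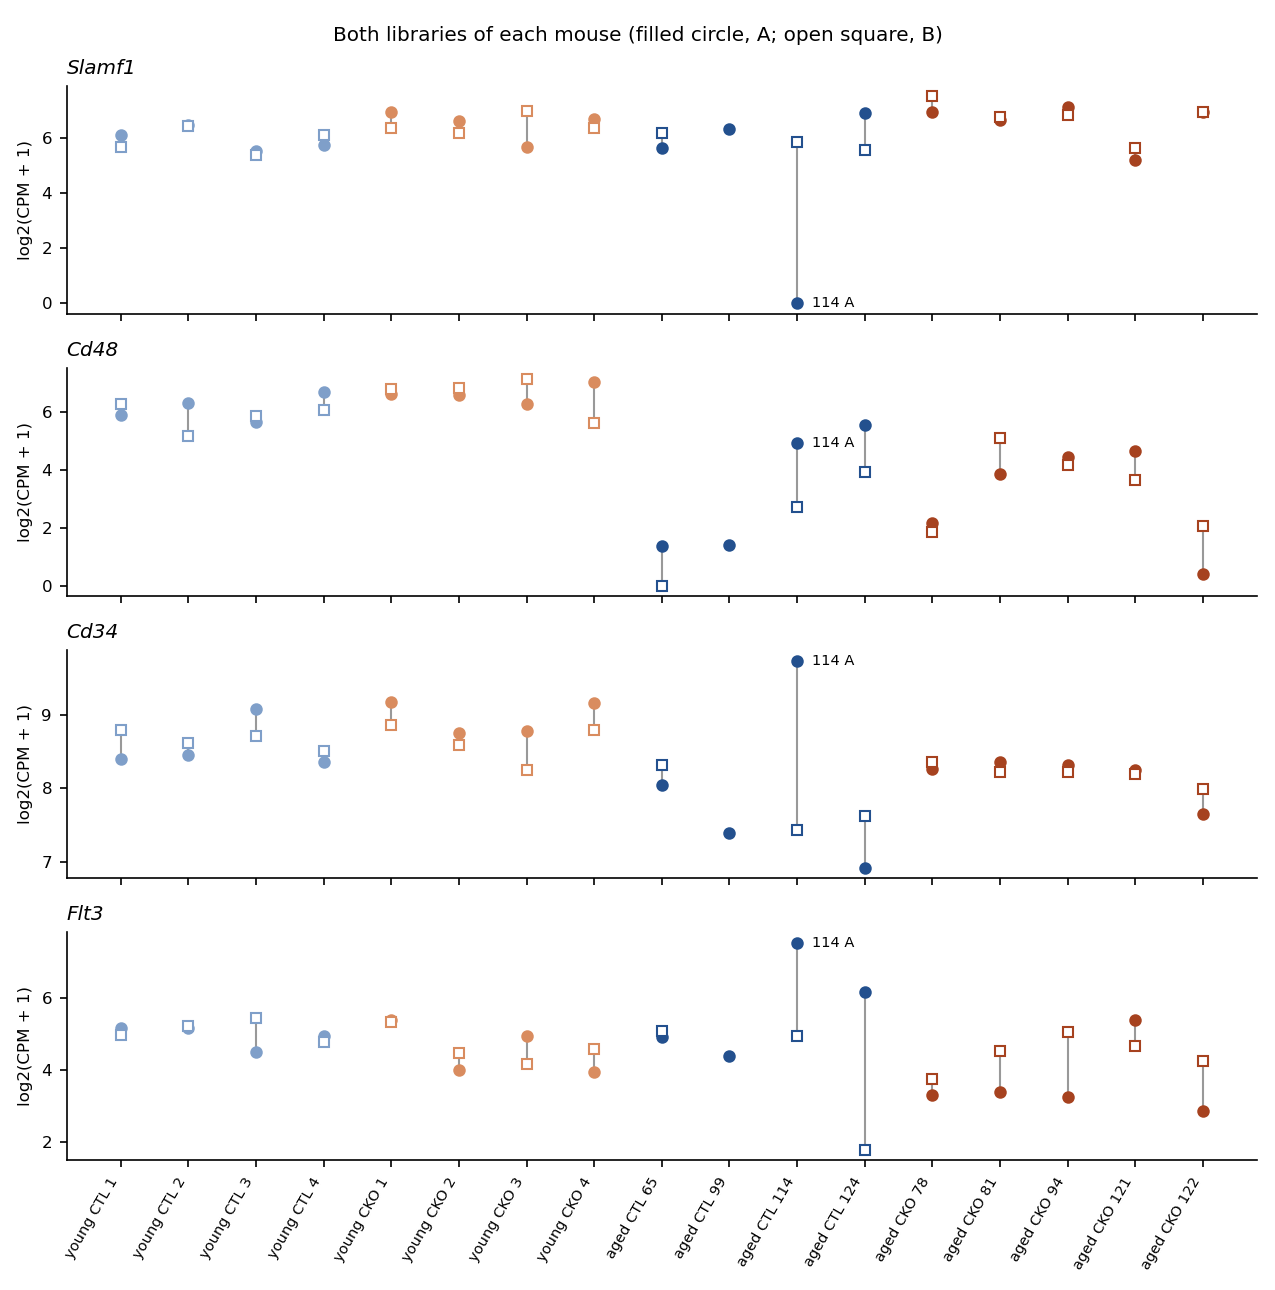
Levels of Slamf1, Cd48, Cd34 and Flt3, as log2(CPM + 1), in library A (filled circle) and library B (open square) of each mouse, joined by a line and colored by group. Library 114 A is labelled: it has 0 CPM of Slamf1 and the highest Cd34 and Flt3 of all libraries.

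The label of the cells was checked against marker lists. The HSC list (Procr, Fgd5, Mecom, Hlf and Slamf1) summed to between 319 and 708 CPM in every library. The B cell list, with 3 genes in the table, summed to between 29.0 and 169 CPM. Of these Cd79b alone reached 169 CPM, Cd79a at most 1.26 CPM, and Ms4a1 was at 0 in all libraries. The T cell list, also with 3 genes in the table, summed to between 3.52 and 53.0 CPM, and its gate genes Cd4 and Cd5 reached at most 4.40 and 4.80 CPM. The granulocyte list of 6 genes summed to at most 64.3 CPM in the libraries of all groups but aged CKO, where it reached 192 CPM in library B of mouse 78. The erythroid list of 7 genes summed to between 3.09 and 159.9 CPM, the endothelial list of 6 to between 51.7 and 261 CPM, and the mast cell and basophil list of 5 to at most 55.8 CPM. The monocyte and macrophage list of 6 genes summed to between 357 and 933 CPM, of which Lyz2 alone was between 349 and 932 CPM, while Csf1r reached at most 4.07 CPM. The list of megakaryocytes and platelets, with 7 genes in the table, had a wide range. It summed to between 539 and 1167 CPM in young CTL and between 654 and 6618 CPM in young CKO libraries. In aged mice it was between 129.6 (library 114 A) and 660.2 CPM in CTL libraries and between 419 and 2275 CPM in CKO libraries. Its gene Pf4 was 1 of the 20 genes called between young genotypes, at 437 ± 169 CPM in CTL and 1526 ± 905 CPM in CKO mice (SD, n = 4 each, log2 fold change 1.80, SE 0.34, edgeR adjusted p = 0.0488). In aged mice Pf4 was at 234 ± 45.3 CPM in CTL (n = 4) and 962 ± 414 CPM in CKO mice (n = 5), with a log2 fold change of 2.05 (SE 0.35, edgeR adjusted p = 0.205).

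Levels of different genes were compared per kb of exon. Over all 17 mice Cd27 was the most abundant of the 10 genes, at 72.8 ± 25.0 CPM per kb (SD, n = 17), and exceeded the next gene in 13 mice. Cd34 (48.8 ± 15.6), Kit (48.0 ± 9.41), Cd48 (38.8 ± 33.8) and Procr (37.4 ± 13.1 CPM per kb) followed, and the first 3 of these each exceeded the next gene in 8 to 10 of 17 mice. This pooled order joins ages whose orders differ. By group means Cd34 was above Kit in young mice (54.6 against 40.6 CPM per kb in CTL, 63.8 against 40.3 in CKO) and Kit above Cd34 in aged mice (53.1 against 38.4 in CTL, 56.1 against 40.4 in CKO). The place of Cd48 held in no single group. In young CKO mice Cd48 was the highest of the 10 genes, at 85.0 ± 3.11 CPM per kb (SD, n = 4), above Cd27 in all 4 mice, and in young CTL mice it lay beside Cd27 (56.8 ± 11.6 and 57.3 ± 8.12 CPM per kb, n = 4). In aged CTL and CKO mice it was at 10.01 ± 11.1 (n = 4) and 10.4 ± 7.65 CPM per kb (n = 5), with means below those of Tek. Procr exceeded Tek in all 17 mice. Tek (14.4 ± 5.04) and Slamf1 (13.5 ± 5.43 CPM per kb) also lay together, Tek being higher in 9 mice. Flt3 (4.81 ± 3.42), Fgd5 (2.54 ± 1.51) and Thy1 (1.31 ± 0.837 CPM per kb) were the lowest. Among 12966 genes with a known exon length, Cd27 stood at the 92.1st percentile, Slamf1 at the 66.5th, Flt3 at the 42.6th and Thy1 at the 19.5th. The gate selected for CD150 and against CD48 at the cell surface, yet Cd48 RNA was above Slamf1 RNA per kb in all 8 young mice.

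**Figure D2:**
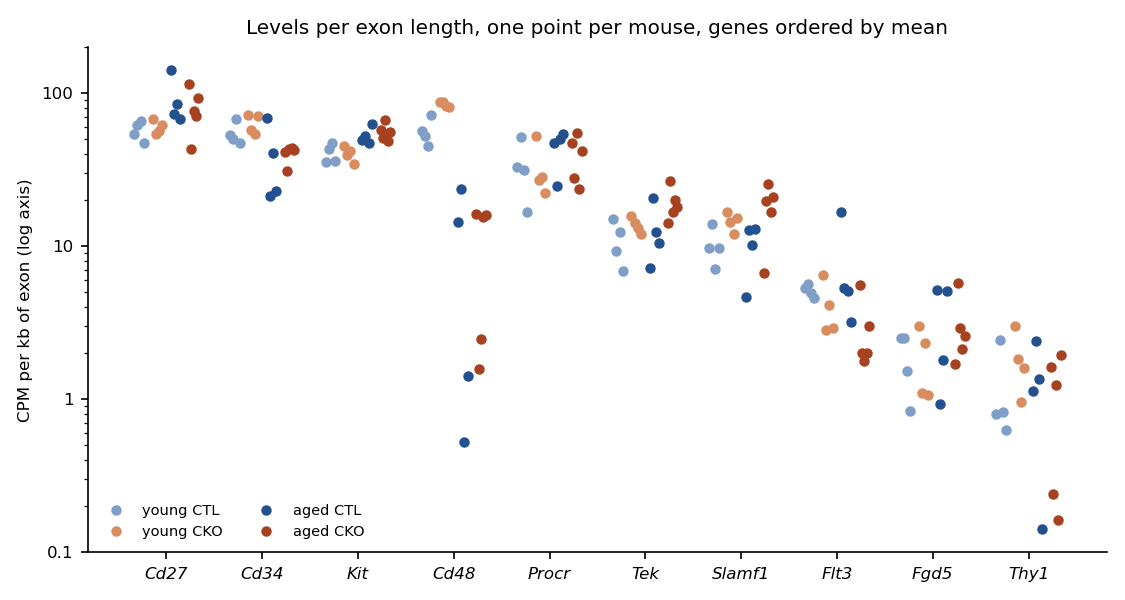
Level of each gene in CPM per kb of exon (log axis), 1 point per mouse, colored by group, with genes ordered by their mean over 17 mice. Cd48 has the widest range, from 0.528 CPM per kb in an aged CTL mouse to 88.2 CPM per kb in a young CKO mouse.

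Both libraries of a mouse showed how far a level from 100 cells can be read. The median difference between libraries A and B was 0.23 for Kit, 0.25 for Cd27 and 0.29 for Cd34 on the log2 scale (16 mice), and the median of all tested genes was 0.48. It was larger for Cd48 (0.93), Thy1 (0.85) and Fgd5 (1.01). Kit, Cd27 and Cd34 were thus the steadiest of the 10 genes, and Fgd5 and Thy1 the least steady together with Cd48. The largest difference for Flt3 was in the mouse labelled aged CTL 124, with 70.4 CPM in library A and 2.42 CPM in library B, and the largest for Slamf1, Cd48 and Cd34 were in mouse 114.

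In young mice none of the 10 genes passed the test between genotypes. By the quasi-likelihood test of edgeR, 0 of 10 were higher in CKO HSCs, where 0.13% of 11526 genes were, and 0 were lower, where 0.0434% were. At an unadjusted p below 0.05 there were 2 of the 10, Slamf1 and Cd48, against 814 of all genes (7.06%), and DESeq2 and the likelihood ratio test called 0 as well. Their fitted log2 fold changes lay between -0.33 and 0.64 with a median of 0.15, and the median of all genes was -0.00093. In aged mice 0 of 10 passed in either direction, and neither did any of 11961 genes (0% higher and 0% lower). There 2 of the 10, Slamf1 and Flt3, had an unadjusted p below 0.05, against 1208 genes (10.1%), and DESeq2 and the likelihood ratio test called 0 of the 10. The difference of the genotype effect between ages was called for 0 of the 10 genes and for 0% of 12352 genes in either direction, with 0 of the 10 at an unadjusted p below 0.05.

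With age, Cd48 fell in both genotypes. In bulk RNA of sorted cells, fewer cells that carry a transcript and less of it per cell cannot be told apart. In CTL HSCs 1 of 10 genes was lower in aged mice, where 8.07% of 12352 genes were, and 0 were higher, where 6.7% were. In CKO HSCs 1 was lower, Cd48, where 9.34% of genes were, and 1 was higher, Kit, where 7.21% were. Of all genes 828 were higher and 997 lower in aged CTL HSCs (1110 and 764 when library totals alone set the scale), and 891 were higher and 1154 lower in aged CKO HSCs (1126 and 870 with library totals). The median log2 fold change of all genes was 0.11 in CTL and 0.070 in CKO HSCs, and with library totals alone 0.21 and 0.17. Both age comparisons use the same fit of all 17 mice.

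**Figure D3:**
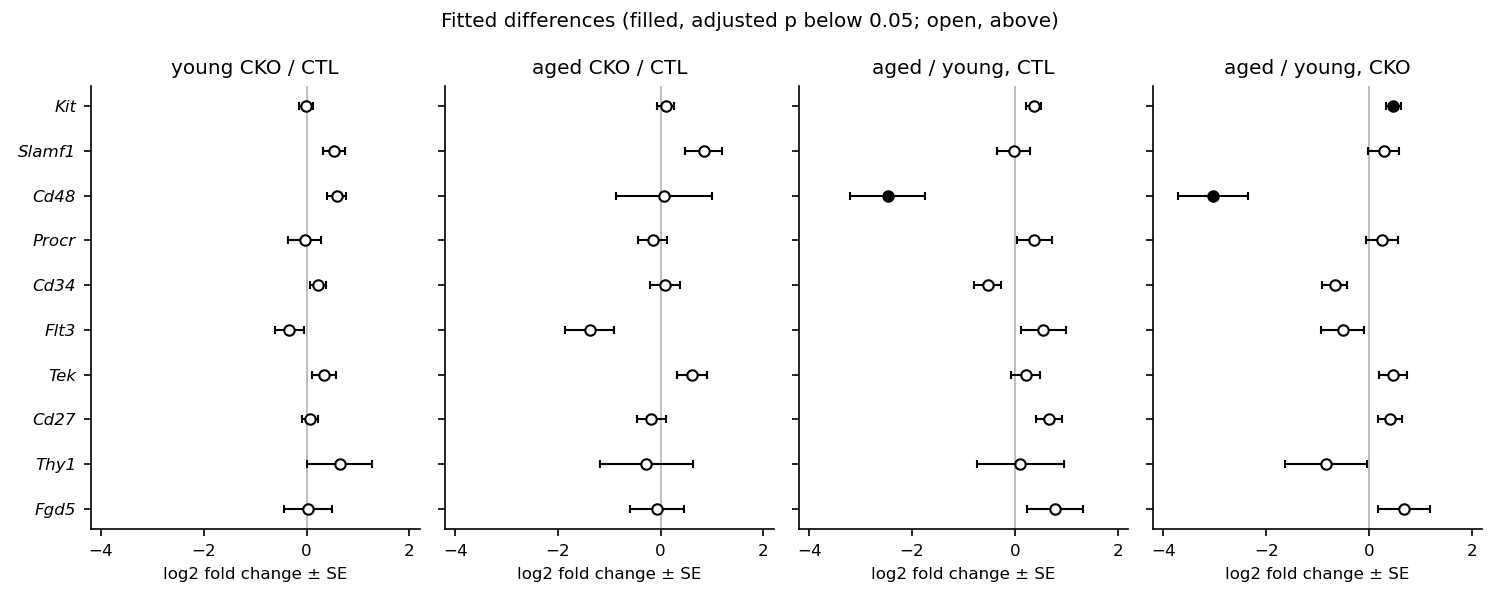
Log2 fold change of each gene with its standard error in 4 comparisons, CKO against CTL in young and in aged mice and aged against young mice in CTL and in CKO. Filled points passed the quasi-likelihood test of edgeR at an adjusted p of 0.05: Cd48 at -2.48 and -3.04 and Kit at 0.47.

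**Figure D4:**
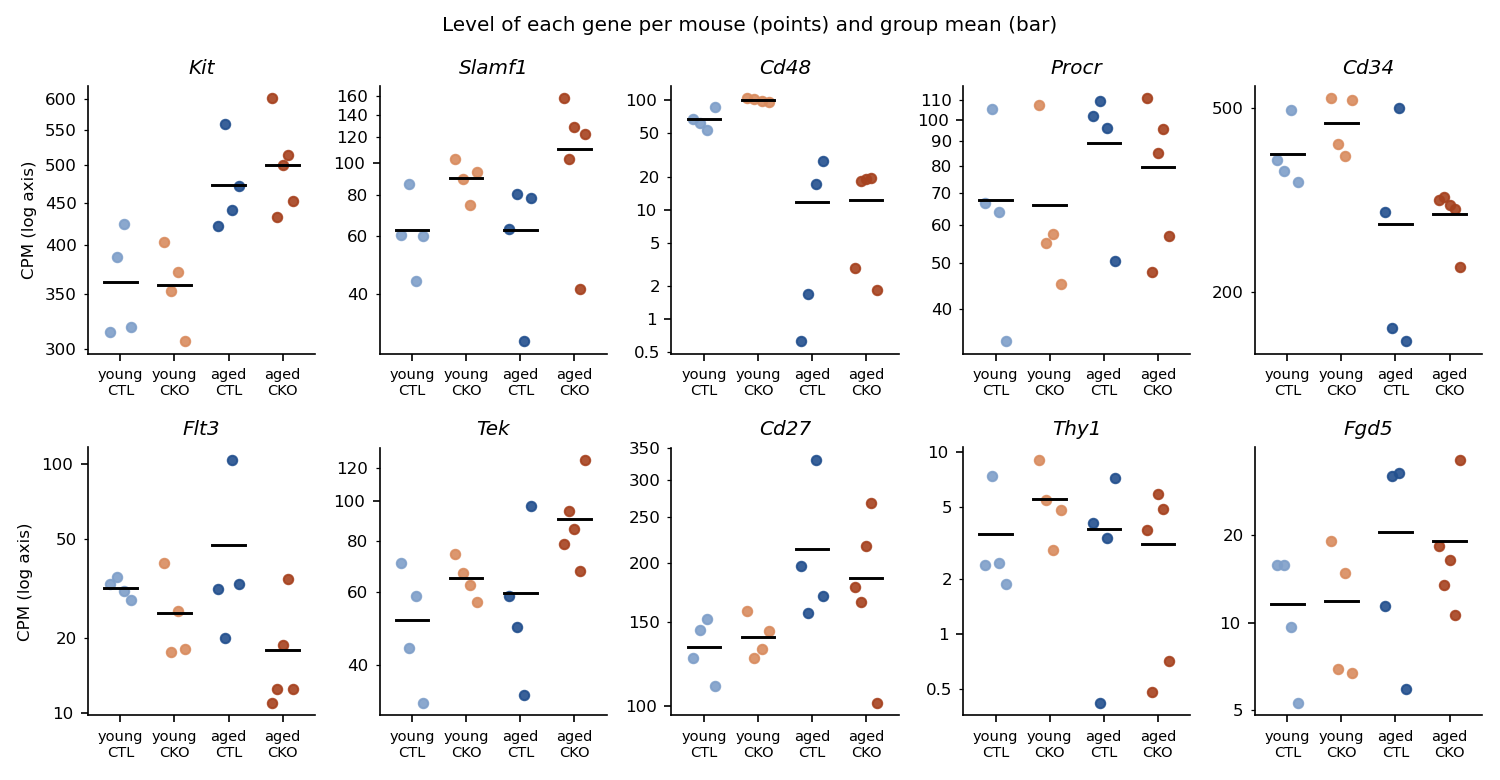
Level of each of the 10 genes in CPM (log axis, scaled per gene), 1 point per mouse in 4 groups, with the group mean as a bar. Cd48 lies between 53.7 and 105 CPM in young mice and between 0.628 and 28.2 CPM in aged mice.

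Slamf1 and Cd48 belong to the SLAM family of immune receptors and lie side by side on chromosome 1. In the GENCODE annotation of GRCm38, Cd48 spans chr1:171682009-171705258 and Slamf1 chr1:171767127-171801184, both on the plus strand, with 61868 bases and 5 small or pseudogene models between them. The 250 bases before the RefSeq start of each gene (GRCm38.p6, plus strand, chr1:171681742-171681991 and chr1:171766882-171767131) are shown because the pair is adjacent in the genome and both proteins were part of the gate. Capitals mark a match to the letters TGTGGT of the RUNX motif.
Cd48: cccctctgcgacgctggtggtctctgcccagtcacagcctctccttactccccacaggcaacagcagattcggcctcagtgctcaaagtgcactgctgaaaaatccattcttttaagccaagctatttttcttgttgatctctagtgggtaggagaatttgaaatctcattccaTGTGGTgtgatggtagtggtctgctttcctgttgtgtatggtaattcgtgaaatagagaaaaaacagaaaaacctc
Slamf1: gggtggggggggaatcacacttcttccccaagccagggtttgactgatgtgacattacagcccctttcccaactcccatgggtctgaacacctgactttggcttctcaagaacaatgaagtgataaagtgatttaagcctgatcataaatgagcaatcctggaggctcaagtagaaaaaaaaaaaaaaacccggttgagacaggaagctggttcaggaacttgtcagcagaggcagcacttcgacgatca
Both strands were searched for 4 motifs, which do not overlap each other in these windows. The GATA motif was spelled AGATAA and occurs in 10.3% of 27025 mouse promoters of that length. The RUNX motif TGTGGT occurs in 14.2% of them. For the ETS motif the letters CCGGAAG were used, which 7.05% of the promoters hold. The E-box was spelled CAGCTG and is held by 12.8%. Cd48 held 1 RUNX match, 76 bases before the start (position -76), and Slamf1 none of the 4. Of the other genes with a promoter entry, Procr held 1 E-box (position -34) and Kit, Cd34, Flt3, Tek, Cd27 and Fgd5 held none. A match describes letters only.

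Slamf1 encodes CD150, for which the cells were selected. In young CTL mice 1 to 4 it was at 60.3, 86.0, 43.7 and 59.8 CPM, and in young CKO mice 1 to 4 at 103, 89.3, 74.6 and 93.6 CPM. CTL mouse 2 was above CKO mouse 3, and otherwise the CKO mice were the higher. The means were 62.4 ± 17.5 and 90.1 ± 11.8 CPM (SD, n = 4 each), and the log2 fold change was 0.53 (SE 0.21, edgeR adjusted p = 0.605, unadjusted 0.0257). In aged CTL mice 65, 99, 114 and 124 Slamf1 was at 62.9, 80.2, 28.7 and 78.3 CPM. In aged CKO mice 78, 81, 94, 121 and 122 it was at 157, 103, 129, 41.3 and 122 CPM. The mouse labelled CKO 121 lay below 3 of the CTL mice, and the 4 other CKO mice lay above all 4 CTL mice. In aged mice the log2 fold change was 0.84 (SE 0.36, adjusted p = 0.458). It was 0.67 without library 114 A (adjusted p = 0.524), 1.18 without the mice labelled CKO 121 and CTL 124 (adjusted p = 0.124) and 0.95 without all of these (adjusted p = 0.0776). The difference between the young and the aged effect was 0.31 on the log2 scale (SE 0.45, adjusted p = 0.999). The median sum of the megakaryocyte and platelet genes was also higher in CKO libraries (598 and 1604 CPM in young, 574 and 1691 CPM in aged CTL and CKO libraries). Pf4, higher in CKO mice at both ages, is part of this sum and reached 5771 CPM at its highest. Of the 7 genes of the list, 6 in young and 7 in aged mice had a positive log2 fold change. Gp9 was lower in young CKO mice (84.0 CPM in CTL, 61.6 CPM in CKO). The part of these genes in the levels of Slamf1 was not tested. Sca-1, the other positive gate protein beside c-Kit, is encoded by Ly6a, which was at 279 ± 40.0 CPM in young CTL and 641 ± 204 CPM in young CKO mice (log2 fold change 1.20, SE 0.19, adjusted p = 0.0201). Without young CTL mouse 1 or young CTL mouse 2, 0 genes were called between young genotypes, so the calls of Ly6a, Pf4 and Ythdf2 were lost with either mouse.

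Cd48 encodes the SLAM family ligand whose protein was gated out. Its RNA was nevertheless measured in every young library, between 34.9 and 143 CPM. In young CTL mice 1 to 4 it was at 67.5, 62.5, 53.7 and 86.4 CPM, and in young CKO mice 1 to 4 at 105, 104, 98.6 and 97.3 CPM. The genotypes did not overlap, which was so in the same direction for 1 of the 10 genes and for 2.71% of all genes, while 0 of the 10 and 2.06% of all genes did not overlap in the other. The CKO mice were close to each other (mean 101 ± 3.70 CPM) and the CTL mice less so (67.5 ± 13.8 CPM, SD, n = 4 each). The log2 fold change was 0.58 (SE 0.18), with an edgeR adjusted p of 0.372 and an unadjusted p of 0.00507. Single libraries did overlap, from 34.9 to 103 CPM in CTL and from 48.2 to 143 CPM in CKO.

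In aged mice Cd48 RNA was scarce. Aged CTL mice 65, 99, 114 and 124 had 0.628, 1.69, 17.1 and 28.2 CPM, and aged CKO mice 78, 81, 94, 121 and 122 had 2.95, 18.4, 19.1, 19.5 and 1.86 CPM. The mice fell into a low and a higher range within each genotype, and the genotypes overlapped throughout. Mouse 114 had 29.4 CPM in library A and 5.60 CPM in library B. Between genotypes in aged mice the log2 fold change of Cd48 was 0.07 (SE 0.94, edgeR adjusted p = 0.987). Over 24 alternatives it ran from -0.36 to 2.09, changed sign in 7 and was called in 0. At the lowest, mouse 65 had 6 counts in library A and 0 in library B, which allows up to 0.531 CPM there. All aged mice lay below all young mice of their genotype. In CTL HSCs the log2 fold change with age was -2.48 (SE 0.73, edgeR adjusted p = 0.0273), and in CKO HSCs it was -3.04 (SE 0.68, adjusted p = 0.00489). The fitted aged level was 0.18 of the young level in CTL and 0.121 of it in CKO HSCs. In CKO HSCs the call held with any 1 mouse left out, with a log2 fold change between -3.28 and -2.78. In CTL HSCs it was lost without aged CTL mouse 99 (-2.17, adjusted p = 0.0699), young CTL mouse 1 (-2.48, adjusted p = 0.0536) or young CTL mouse 4 (-2.33, adjusted p = 0.0721). The 2 highest of the aged CTL mice were 114 and 124. Without library 114 A the value was -2.84 (adjusted p = 0.0151), without the mice labelled CKO 121 and CTL 124 it was -3.37 (adjusted p = 0.0055), and without all of these, with mouse 114 resting on library B alone, it was -5.00 (adjusted p = 0.000182).

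Kit encodes the receptor tyrosine kinase for stem cell factor and was one of the gate proteins. Its level varied little, with an SD between 11.3% and 14.8% of the mean within groups. In young CTL mice 1 to 4 it was at 315, 387, 425 and 319 CPM, and in young CKO mice 1 to 4 at 404, 353, 372 and 307 CPM, ranges that lay over each other. At 1 yr, CTL mice 65, 99, 114 and 124 had 422, 559.8, 441 and 471 CPM. Aged CKO mice 78, 81, 94, 121 and 122 had 601, 432, 499.7, 513 and 452 CPM. Every aged CKO mouse was above every young CKO mouse, and Kit was the 1 of the 10 genes that did not overlap in this direction, as did 9.27% of all genes. With age in CKO HSCs it changed by 0.47 on the log2 scale (SE 0.14, edgeR adjusted p = 0.0294). The call was lost when any of 6 mice was left out (aged CKO 78, 94 or 121 or young CKO 2, 3 or 4), with adjusted p between 0.0524 and 0.0887. In CTL HSCs young mouse 3 was above aged mouse 65, and the log2 fold change was 0.37 (SE 0.15, adjusted p = 0.107). It passed with library totals alone as the scale (0.47, adjusted p = 0.045), with libraries as replicates and their letter as a block (0.37, adjusted p = 0.0439) and with Y-linked expression added as a covariate (0.51, adjusted p = 0.0182).

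Cd34 encodes a sialomucin that adult mouse long-term HSCs carry little of, and Flt3 the receptor for FLT3 ligand, which marks lymphoid-primed multipotent progenitors. In young CTL mice 1 to 4 Cd34 was at 387, 365, 495 and 346 CPM, and in young CKO mice 1 to 4 at 526, 418, 394 and 521 CPM. These overlapped, with a log2 fold change of 0.22 (SE 0.15, edgeR adjusted p = 0.863). At 1 yr, CTL mice 65, 99, 114 and 124 had 298, 167, 499.9 and 156 CPM, and aged CKO mice 78, 81, 94, 121 and 122 had 316, 321, 309, 301 and 227 CPM. Mouse 114 was the highest of all aged mice, through library A, and mice 99 and 124 were the lowest. All 5 aged CKO mice were below all 4 young CKO mice, and 2 of the 10 genes, Cd34 and Cd48, did not overlap in this direction, as did 11.1% of all genes. With age its log2 fold change was -0.66 in CKO HSCs (SE 0.25, adjusted p = 0.0694). By DESeq2 its adjusted p was 0.0284. In CTL HSCs it was -0.52 (SE 0.26, adjusted p = 0.188), and without library 114 A it was -1.02 with an adjusted p of 0.00247, past the threshold. Between genotypes in aged mice the log2 fold change was 0.09 (SE 0.29, adjusted p = 0.952). It was 0.57 without library 114 A (adjusted p = 0.423), and its sign changed without aged CTL mouse 99 or 124. Cd34 shares 148 bp of exon with Gm16897 on the opposite strand, and whether the counting used strand is not given in the sources used here.

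Flt3 was low in these cells and spread more among CKO than among CTL mice at the young age. Young CTL mice 1 to 4 had 32.8, 35.2, 30.7 and 28.4 CPM. Young CKO mice 1 to 4 had 39.9, 17.5, 25.5 and 18.1 CPM. CKO mouse 1 was above all CTL mice and the 3 other CKO mice were below all of them. This gave a log2 fold change of -0.33 (SE 0.29, edgeR adjusted p = 0.896). Aged CTL mice 65, 99, 114 and 124 had 31.5, 19.8, 104 and 33.0 CPM. Aged CKO mice 78, 81, 94, 121 and 122 had 10.9, 12.4, 18.7, 34.5 and 12.5 CPM. The mouse labelled CKO 121 was above 3 of the 4 CTL mice, and the 4 other CKO mice were below all CTL mice. Between genotypes the log2 fold change was -1.38 (SE 0.48, adjusted p = 0.398, unadjusted 0.0125). Without library 114 A it was -0.69 (adjusted p = 0.61). Without the mice labelled CKO 121 and CTL 124 it was -1.93 (adjusted p = 0.121), and without all of these -0.99 (adjusted p = 0.292). The aged effect differed from the young effect by -1.06 (SE 0.61, adjusted p = 0.999). With age in CTL HSCs the log2 fold change of Flt3 was 0.55 (SE 0.44, adjusted p = 0.427), and it was -0.16 without library 114 A. In CKO HSCs it was -0.51 (SE 0.42, adjusted p = 0.444), and -0.90 with an adjusted p of 0.0445 without that library and the mice labelled CKO 121 and CTL 124.

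The 12 other genes of lymphoid-primed and multipotent progenitors in the table summed to 731 CPM in library 114 A, the highest of all libraries, and to at most 604 CPM in the libraries of the 3 other groups. The 13 genes of myeloid progenitors summed to 977 CPM there, again the highest, and to at most 784 CPM in the libraries of the other groups. The sums of these lists were high along with Flt3 in that library, and their part in the level of Flt3 was not tested. No gene of either list passed between genotypes (5 and 7 tested in young, 6 and 6 in aged mice). With age, of 7 lymphoid-primed genes tested, Gpr183, an oxysterol receptor, rose in CKO HSCs (3.98, SE 1.29, adjusted p = 0.0381), and 0 passed in CTL HSCs. Over all genes, 7.21% rose in CKO HSCs. Of 8 myeloid genes tested, Ms4a3, a gene of granulocyte and monocyte progenitors, fell in CTL (-3.19, SE 0.54, adjusted p = 0.00112) and in CKO HSCs (-1.79, SE 0.46, adjusted p = 0.0107). This 1 gene of 8 stands against 8.07% and 9.34% of all genes that fell, a share near the background.

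Tek encodes TIE2, through which angiopoietin-1 acts on HSCs. Young CTL mice 1 to 4 had 70.6, 43.8, 58.6 and 32.3 CPM and young CKO mice 1 to 4 had 74.0, 66.7, 62.4 and 56.7 CPM. The CKO mice were within a narrower range that overlapped that of the CTL mice, and the log2 fold change was 0.34 (SE 0.24, edgeR adjusted p = 0.876). The aged CTL mice 65, 99, 114 and 124 had 58.8, 49.4, 33.8 and 96.9 CPM. Aged CKO mice 78, 81, 94, 121 and 122 had 78.4, 94.4, 85.4, 67.3 and 125.7 CPM. Only the mouse labelled CTL 124 lay among the CKO mice, above 4 of them. The log2 fold change was 0.61 (SE 0.29, adjusted p = 0.497), and 1.03 without the mice labelled CKO 121 and CTL 124 (adjusted p = 0.113). In aged mice 0 of the 10 genes were without overlap in either direction, where 1.68% of all genes were higher and 1.76% lower without overlap.

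Procr encodes EPCR, the endothelial protein C receptor. It was at 66.9, 106, 64.1 and 34.2 CPM in young CTL mice 1 to 4 and at 107, 55.1, 57.4 and 45.1 CPM in young CKO mice 1 to 4. Aged CTL mice 65, 99, 114 and 124 had 102, 109.8, 96.0 and 50.5 CPM, and aged CKO mice 78, 81, 94, 121 and 122 had 111, 47.8, 85.2, 95.7 and 56.9 CPM. All 4 groups overlapped (group means from 66.2 ± 27.9 to 89.5 ± 26.6 CPM). Procr passed the test in none of the 5 comparisons. With Y-linked expression added as a covariate it did pass with age in CTL HSCs (log2 fold change 0.88, adjusted p = 0.0478), against 0.38 (adjusted p = 0.478) without it.

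Cd27 encodes a receptor for CD70. It was at 126.3, 144, 152 and 110.2 CPM in young CTL mice 1 to 4 and at 159, 126.01, 132 and 144 CPM in young CKO mice 1 to 4. Aged CTL mice 65, 99, 114 and 124 had 197, 157, 331 and 170.4 CPM. Aged CKO mice 78, 81, 94, 121 and 122 had 178, 166, 218, 268 and 101 CPM. Every aged CTL mouse was above every young CTL mouse, and Cd27 was the 1 of the 10 genes to do so, as did 7.38% of all genes. Cd48 was the 1 that did not overlap in the other direction in CTL mice, as did 9.61% of all genes. The log2 fold change of Cd27 with age was 0.67 in CTL HSCs (SE 0.25, edgeR adjusted p = 0.0753) and 0.40 in CKO HSCs (SE 0.24, adjusted p = 0.261). In CTL HSCs it was 0.37 without mouse 114 (adjusted p = 0.315). It passed by DESeq2 (adjusted p = 0.0454), with libraries as replicates and their letter as a block (0.74, adjusted p = 0.00758) and without the mouse labelled CTL 124 together with CKO 121 (0.76, adjusted p = 0.0324).

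Thy1 and Fgd5 were the least abundant of the 10 genes per kb, and Thy1 came near the floor. Thy1, a GPI-anchored protein of the immunoglobulin family, had between 1 and 51 counts per mouse, or between 0.422 and 9.03 CPM, and 0 counts in 1 library. Its group means were 3.53 ± 2.57 in young CTL, 5.54 ± 2.57 in young CKO (SD, n = 4 each), 3.76 ± 2.77 in aged CTL (n = 4) and 3.13 ± 2.43 CPM in aged CKO mice (n = 5). Fgd5, an exchange factor for the small GTPase Cdc42, had between 5.29 and 36.4 CPM. Its means were 11.6 ± 5.10 and 11.9 ± 6.09 CPM in young CTL and CKO mice and 20.5 ± 13.9 and 19.1 ± 10.1 CPM in aged CTL and CKO mice. The standard deviations were between 43.9% and 77.6% of the mean over both genes and all groups, and neither gene passed the test in any of the 5 comparisons.

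The ligands and signaling partners of these proteins were followed as a list of 26 genes in the table. In neither age did any of the 23 tested pass between genotypes. With age 3 of 24 were higher and 1 was lower in CTL HSCs, against 6.7% and 8.07% of all genes. Tie1, the sister receptor of TIE2, rose in CTL (1.29, SE 0.32, adjusted p = 0.0112) and in CKO HSCs (0.95, SE 0.31, adjusted p = 0.0363). Cbl, a ubiquitin ligase for activated KIT and FLT3, rose in CTL HSCs (1.499, SE 0.41, adjusted p = 0.0191), as did Traf2, an adaptor of TNF family receptors (0.74, SE 0.23, adjusted p = 0.0352). Cdc42 fell in CTL (-0.61, SE 0.14, adjusted p = 0.00817) and in CKO HSCs (-0.42, SE 0.14, adjusted p = 0.0377). In CKO HSCs Tie1 was the 1 gene of 24 that was higher. Of the SLAM family, with 10 genes in the table and 6 tested, Cd48 was the 1 gene called in either age comparison and none was called between genotypes.

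Other genes of long-term HSCs gave a list of 30. Between genotypes 1 of 29 tested was higher in young CKO mice, Ly6a, and 0 of 30 passed in aged mice. With age 10 were higher and 4 lower in CTL HSCs, and 9 were higher and 4 lower in CKO HSCs, against 6.7%, 8.07%, 7.21% and 9.34% of all genes. The median log2 fold change was 0.47 in CTL and 0.63 in CKO HSCs, against 0.11 and 0.070 over all genes, whereas the median of the 10 genes was 0.29 and 0.27. Vwf, von Willebrand factor, rose in CTL (1.80, SE 0.39, adjusted p = 0.00477) and in CKO HSCs (1.48, SE 0.36, adjusted p = 0.00794). Clec1a, a C-type lectin receptor, rose in both (2.02, SE 0.50, and 2.32, SE 0.49), as did Eng, a coreceptor of the TGF-beta family (1.15, SE 0.21, and 1.10, SE 0.20), Itga6, integrin alpha 6 (1.18, SE 0.22, and 0.95, SE 0.21), Tie1 and Trim47. Ifitm1 and Ifitm3, which encode interferon-induced membrane proteins, fell in both. Ly6a fell with age in CKO HSCs (-1.10, SE 0.27, adjusted p = 0.00868). Since the lists and the 10 genes were chosen with results of these data known, their counts describe them and test nothing further.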

How the data were processed

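RNA was measured in pools of sorted HSCs by SMART-Seq2, without molecular identifiers. Per the labels and the study's methods, the authors aligned reads to GRCm38 (mm10 in the submitters' processing notes) with HISAT2 and deposited raw counts per gene, counted with Rsubread. The annotation and the strand setting are not given in the sources used here. Here the counts of libraries A and B of each mouse were added, except library B of aged CTL mouse 99. Genes were filtered with filterByExpr (minimum count 10, total 15), scaled by TMM and tested over mice with the quasi-likelihood test of edgeR 4.0.16 in R 4.3.3, with Benjamini-Hochberg adjustment over all genes tested and a threshold of 0.05. Genotypes were compared within each age, and ages and the difference of the genotype effects in 1 fit of all 17 mice. The SE is the absolute log2 fold change over the square root of F, and fold changes used the default prior count of edgeR. A prior count of 2 entered the Y-linked covariate only. The steps were tested on simulated data. The study's likelihood ratio test, DESeq2 1.42.0, other scalings and filters, a covariate of Y-linked genes, replicate blocks and leaving out each mouse were alternatives. Exon lengths came from GENCODE vM21 and promoters from RefSeq GRCm38.p6. Per mouse, totals ranged from 2218618 to 10125624 counts, and floors of 3 counts cover counting error only.

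The 10 genes and all lists were chosen with earlier results of these data known. All 10 are named, with Ythdf2 and Ly6a. From each list only genes past the threshold were to be named, or else the 4 most abundant. Mpo, Dntt, Prtn3, Hlf, Pf4, Cd79a, Cd79b, Ms4a1, Cd4, Cd5, Lyz2 and Csf1r were named after their values were seen. Some genes of the lists are not reported here.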

Additional observations from a re-analysis of the deposited data

Results flagged for a closer look

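In groups of 4 or 5 mice, a mouse far from the others was looked for in 40 gene and group pairs, where chance gives about 1 in 20, or 2, and 3 were found. Cd34 was at 227 CPM in aged CKO mouse 122, and the nearest of the other aged CKO mice had 301 CPM. Flt3 was at 104 CPM in aged CTL mouse 114, and the nearest aged CTL mouse had 33.0 CPM. That mouse holds library A, which had 183 CPM of Flt3, while library B had 29.8 CPM. Thy1 was at 7.36 CPM in young CTL mouse 2, and the nearest young CTL mouse had 2.46 CPM.

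The library left out of all comparisons, library B of aged CTL mouse 99, held 3 of the 10 genes above every other aged CTL library, as plain CPM on its 187034 counts. Slamf1 was at 182 CPM (34 counts), against at most 114 CPM in the others. Thy1 was at 37.4 CPM (7 counts), against at most 11.1 CPM, and Fgd5 at 112 CPM (21 counts), against at most 52.3 CPM. In the same library 4 of the 10 genes lay below every other aged CTL library, whose lowest levels are given here as TMM-scaled CPM. Kit was at 171 CPM (32 counts), against at least 404 CPM, and Cd27 at 96.2 CPM (18 counts), against at least 143 CPM. Cd34 was at 10.7 CPM (2 counts), against at least 119.9 CPM. Procr had 0 counts, which allows up to 16.0 CPM, against at least 27.7 CPM. The causes of these values were not tested.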

How the results depend on the processing

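None of the 10 genes was called between genotypes in young or aged mice, or for the difference between ages, under any alternative run. The number of them called with age in CTL HSCs was 1. It was 2 with each library as a replicate, with the likelihood ratio test over libraries, with DESeq2 and without the mice labelled CKO 121 and CTL 124. It was 3 with library totals alone, with the Y-linked covariate and with the replicate block of the library letter. Leaving out 1 mouse gave 0 to 2, with 0 called without aged CTL mouse 99, young CTL mouse 1 or young CTL mouse 4. In CKO HSCs the number was 2, and 1 to 2 with 1 mouse left out. It was 3, with Cd34 added, with each library as a replicate, with both likelihood ratio tests, with DESeq2, with the replicate block of the library letter and without the mice labelled CKO 121 and CTL 124. In alternatives chosen after seeing the data, leaving out library 114 A gave 2 in CTL HSCs, and leaving it out with both mice gave 3 in CTL and 4 in CKO HSCs. The cause was not tested.

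The log2 fold change of Cd34 between aged genotypes changed sign from 0.09 to -0.016 with each library as a replicate, -0.017 with the likelihood ratio test over libraries, -0.12 without aged CTL mouse 124 (up to 0.51, without mouse 114), -0.11 without aged CTL mouse 99 and -0.13 without the mice labelled CKO 121 and CTL 124. That of Flt3 with age in CTL HSCs changed from 0.55 to -0.19 without mouse 114 (up to 0.80, without aged CTL mouse 99), -0.16 without library 114 A and -0.24 without that library and both mice. Over all alternatives and values reported, 613 stayed on their side of the threshold or within the spread, 21 newly passed the threshold, 9 no longer passed it, 20 counts moved by over 1.5 times and 8 changed sign. The sign changes of Cd48 between aged genotypes are not among these 8.

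Young CTL and CKO mice share the numbers 1 to 4 but are different animals. The deviations of same-numbered mice correlated between -0.026 and 0.058 (r across genes, 0 of 4 pairs over 0.1). Differently numbered pairs ran from -0.163 to 0.151, so these correlations cannot tell whether same-numbered mice shared a litter or a sort. With the mouse number as a replicate block, Slamf1 was 0.56 (edgeR adjusted p = 0.636) and Cd48 0.60 (adjusted p = 0.543) higher in young CKO mice on the log2 scale. Over all genes, the calls between genotypes numbered 20 in young mice (1 to 90 in other settings, 0 to 18 with a mouse left out) and 0 in aged mice (0 to 420, and 0 to 16). With age they were 1825 in CTL HSCs (1759 to 2593, and 896 to 2048) and 2045 in CKO HSCs (1991 to 3112, and 1183 to 1975). For the difference between ages they were 0 (0 to 17, and 0 to 2).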
